A study of Mus musculus with 24 samples.

Results

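CpG islands that the authors placed far upstream of a gene were described in BAT from infant female mice. An island fragment was taken where the authors' annotation put it in the core of a CpG island and upstream of the gene it names, at a distance of more than 5000 bp. By this rule 2042 of the 65535 fragments of the table were taken, 672 on chromosome 1, 844 on chromosome 2 and 526 on chromosome 3. They lay in 345 islands, and the deposited distance ran from 5048 to 1025139 bp with a median of 39167 bp.

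The libraries came from C57BL/6J females at PND 12 whose dams had been gavaged with olive oil (VEH, 12 libraries) or with p,p'-DDT mixed with o,p'-DDT in olive oil (DDT, 12 libraries) from mid gestation into the first postnatal days. BAT of female littermates was pooled for each library, so that the litter was the replicate, and tissue of this kind holds other cells beside brown adipocytes. RRBS cuts DNA with MspI at CCGG, converts it with bisulfite and counts, within each short fragment, the CpG calls read as methylated and as not methylated. The libraries held 8371958 to 14124652 calls over the table, and 906196 to 1540906 in these island fragments. The level of a fragment was its methylated calls over all its calls, taken from 10 calls upwards, and testing required such a level in 8 or more libraries per group.

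CpG islands are stretches of DNA in which the CpG dinucleotide has been kept at high density, and most mark the promoters of housekeeping and developmental genes, where they stay free of methylation in nearly all tissues. Islands away from annotated promoters are called orphan islands, and many of them are thought to be promoters of transcripts missing from an annotation, or enhancers. CpG-dense copies of transposable elements and the differentially methylated regions of imprinted genes are the best known islands that carry methylation in somatic tissue.

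The label of far upstream islands held for the authors' annotation but, by GENCODE M21 on the same build, not for many of the islands. Of the 345 islands, 175 had no GENCODE transcript start inside them or within 1000 bp. The other 170 had one, and 150 had the start of a protein-coding gene there. In 142 of these 150 islands the authors' annotation named another, more distant gene, and in 8 it named the gene that starts there (Phf3, Hdac4, Plekha6, BC034090, Gsn, B3galt1, Sh3d19 and Ntng1). The deposited distance was within 1000 bp of the distance to the named gene's start for 1318 of the 1475 fragments whose named gene GENCODE places, so the distance itself was what the annotation says. For 1849 fragments, or 90.5%, the nearest protein-coding start was closer than the deposited distance. The fragments are therefore described in 3 groups, those of islands at a protein-coding start, at another transcript start (a pseudogene, an antisense or another noncoding RNA), and at no start, and each is called below by the gene that starts there, with the authors' gene in brackets.

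The sequences below are the GRCm38 plus strand of 9 fragments, from the first base after the MspI cut, with every CpG in capitals. The first 5 lie at transcript starts and were chosen for the smallest p between DDT and VEH (Gpc1, Katnbl1), the lowest level (Abhd18, Ythdf1) and a large spread between VEH litters (Gm38399, which GENCODE does not class as protein-coding and the authors name Csrp1). The Gm38399 fragment holds 16 CpGs in 93 bp and the Abhd18 fragment 2 in 55 bp, although both had a mean level under 5%.
Gpc1 start, chr1:92832127-92832183: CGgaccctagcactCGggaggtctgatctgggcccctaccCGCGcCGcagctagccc
Katnbl1 start, chr2:112379152-112379193: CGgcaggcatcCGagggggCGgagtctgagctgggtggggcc
Abhd18 start, chr3:40893901-40893955: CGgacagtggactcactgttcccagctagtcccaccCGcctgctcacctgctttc
Ythdf1 start, chr2:180920447-180920521: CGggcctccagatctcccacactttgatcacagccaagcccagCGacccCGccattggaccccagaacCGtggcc
Gm38399 start, chr1:135687936-135688028: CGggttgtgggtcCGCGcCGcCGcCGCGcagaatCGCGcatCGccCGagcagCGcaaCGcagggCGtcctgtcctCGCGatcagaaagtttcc

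The other 4 were chosen because they carried methylation. The Gnas fragment lies in an annotated exon where Gnas and its antisense gene Nespas overlap. The fragments of AC130840.1 and Gm14296 had the highest levels of those measured in every library, and 100% and 93.1% of their bases were soft-masked as repeats in the reference genome. The exact AC130840.1 sequence occurs 77 times among MspI fragments of 30 to 220 bp in the genome. The AC137844.2 fragment was the nearest to a level of 50% and holds 7 CpGs in 33 bp.
Gnas and Nespas, chr2:174284752-174284850: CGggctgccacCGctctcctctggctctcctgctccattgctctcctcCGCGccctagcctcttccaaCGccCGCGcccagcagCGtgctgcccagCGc
AC130840.1, chr3:93922658-93922813: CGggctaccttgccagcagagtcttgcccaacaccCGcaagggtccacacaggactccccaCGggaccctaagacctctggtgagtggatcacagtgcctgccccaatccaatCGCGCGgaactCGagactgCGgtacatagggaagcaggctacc
Gm14296, chr2:177094046-177094103: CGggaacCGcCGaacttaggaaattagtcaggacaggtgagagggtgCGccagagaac
AC137844.2, chr3:5860668-5860700: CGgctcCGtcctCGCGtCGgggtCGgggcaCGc

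RRBS reached 1006 of the 2042 fragments in enough libraries to be tested, in 194 of the 345 islands. Of the other 1036 fragments, 817 had no level in any library. The fragments that were and were not reached were of different kinds: 999 of the 1006 tested fragments had a sequence that occurs at 1 place among the genome's MspI fragments, against 358 of the 1036 untested ones, and 560 of the untested ones had more than 10 copies. At least 50% of the bases were soft-masked in 67 tested and 821 untested fragments. An island at a protein-coding start held 869 of the tested and 183 of the untested fragments, and an island with no start 91 of the tested and 809 of the untested. The levels below thus describe mainly unique promoter sequence, and the mostly masked fragments that make up much of the annotation class were hardly measured.

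At the tested fragments the median level was 3.81% (quartiles 2.29% and 7.01%), against 10.8% (quartiles 3.69% and 72.0%) over all 20225 tested fragments of the table. A mean level under 20% was found at 950 fragments, 20% to 80% at 20 and 80% or more at 36. The median was close to that of the 1554 tested island core fragments within 5000 bp upstream of a gene (3.86%) and of the 3790 in gene bodies (3.75%). Levels of 80% or more were found at 1 of those 1554 and at 2 of those 3790 fragments, beside the 36 of 1006 here.

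The transcript start separated most of the low from the high levels, as the plot of levels by transcript start shows. Among the 869 fragments of 142 islands at a protein-coding start, the median level was 3.58% and 857 were under 20%. The 46 fragments of 12 islands at another transcript start were alike, with a median of 3.94% and 43 under 20%. The 91 fragments of 40 islands with no start fell in 2 groups: 50 were under 20%, 9 between 20% and 80%, and 32 at 80% or more.

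**Figure D1:**
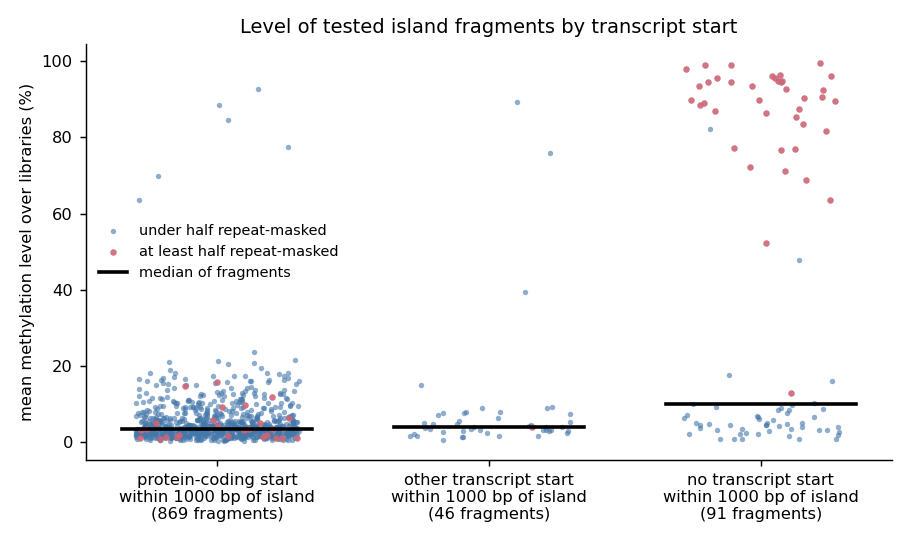
Mean methylation level over the 24 libraries (y axis, %) of each tested island fragment, by whether a GENCODE transcript start lies within 1000 bp of the island (x axis; points spread sideways at random), with the median of each group as a line. The medians are 3.58%, 3.94% and 9.92%, and nearly all fragments above 80% have no start and at least 50% soft-masked bases.

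The islands with no start divided by repeat content. Their 40 fragments with at least 50% soft-masked bases had a median level of 90.1% and ranged from 12.8% to 99.6%. Their 51 fragments with less masking had a median of 4.62%, and 49 of them were under 20%. Counted by island, 13 of the 40 were under 20%, none of them mostly masked, the highest at 8.12%, and 27 were at 52.3% or more, of which 26 were mostly masked. Masking alone did not go with methylation, since the 27 mostly masked fragments in islands at a transcript start had a median level of 3.35% and a highest level of 15.9%. These differed in sequence from the masked fragments with no start, with a median GC content of 81.7% against 65.6%. Their median ratio of observed to expected CpGs was 0.944 against 0.660. The class of masked repeat was not looked at.

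**Figure D2:**
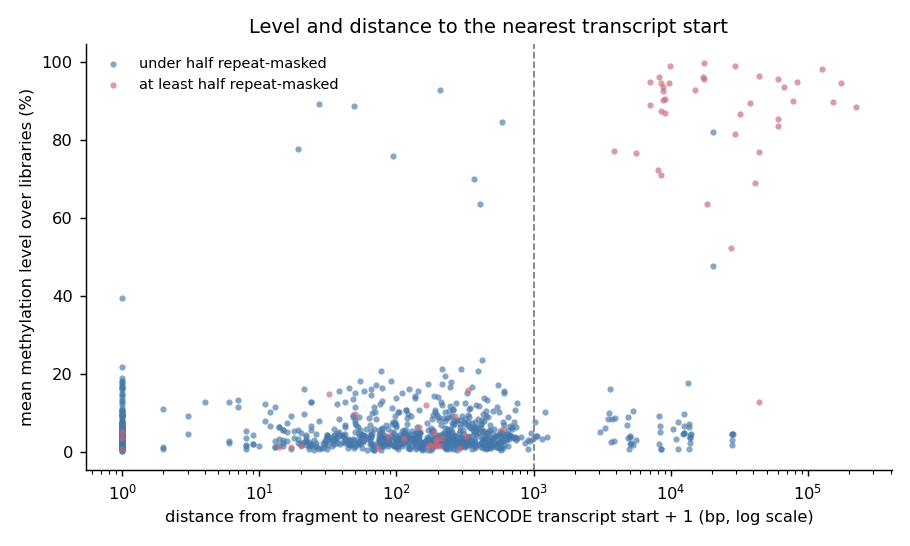
Mean methylation level (y axis, %) against the distance from the fragment to the nearest GENCODE transcript start plus 1 bp (x axis, log scale) for the 1006 tested fragments, with a dashed line at 1000 bp. In islands with no start, less masked fragments stay low at up to 28250 bp from a start, apart from 2 fragments of AC137844.2 at 47.7% and 82.1%, and mostly masked ones are at 52.3% or more, apart from 1 at 12.8%.

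The unmethylated islands with no start were near genes of varied function. The island 13376 to 13965 bp from the Gpr161 start (Gpr161, a ciliary receptor that holds back Hedgehog signalling) had 9 tested fragments between 0.841% and 17.7%. The island 10441 to 10985 bp from Gbx2, a homeobox gene of the midbrain and hindbrain boundary, had 2 tested fragments, at 5.87% and 3.32%. These islands were as low as islands at promoters, although no annotated transcript begins in them. The island assigned to Scrt2, a zinc finger repressor of the nervous system, had 5 fragments between 1.81% and 4.62%. The island nearest Kdm5b (named 4931440L10Rik), a histone H3 lysine 4 demethylase, had 7 between 2.62% and 16.1%, the highest mean of the group. The others were nearest to Tex44 (named Nmur1), Shf (named Duoxa1), Spag6 (named Gm13334), Cfap126 (named 1700009P17Rik), Mir670hg (named Mir670), Gm14488 (named Mir3089), Gm3764 (named AC044864.1), 1700092C17Rik (named Apbb1ip) and Ppp4r1l-ps (named Ankrd60). The spread between litters differed among them. It was widest at the Kdm5b fragment from 134556336 (named 4931440L10Rik), with an SD of 11.3 percentage points in VEH and 15.7 in DDT. At the Scrt2 fragment from 152048718 the level was 1.81% ± 0.241 in VEH and 1.80% ± 0.870 in DDT (SD, n = 12 each). Another Scrt2 fragment, from 152048559, was at 5.41% ± 1.68 in VEH and 3.81% ± 1.603 in DDT (SD, n = 12 each; unadjusted p = 0.0260, ANOVA), and DDT replicate 4 was the lowest there, at 0.0129%.

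The highest levels were in mostly masked islands between genes. At the AC130840.1 fragment with the highest level of those measured in every library, VEH ran from 98.2% over a median of 99.2% to 99.8% and DDT from 97.9% over 98.5% to 100%. Its neighbour, of a sequence found at 1 place, had a mean of 94.7%, which ran from 94.2% to 95.8% in VEH and from 87.6% to 95.5% in DDT. These values put both groups at near-complete methylation with small spread. The next were fragments named for Gm14296 (96.0%), 4832428D23Rik (95.5%), F830104G03Rik (94.9%) and AC107678.1 (89.5%), each at least 7079 bp from a transcript start. The Gm14296 level was 96.0% ± 0.545 in VEH and 96.0% ± 1.51 in DDT (SD, n = 12 each). The lowest of the mostly masked fragments with no start, from 7586918 in the Gm10115 island, was at 12.8%, had a sequence of 172 copies and was read with 10 to 42 calls per library.

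At transcript starts a level of 20% or more was found at 15 fragments of 10 islands. The island at the start of Sycp1 (named Sike1), which encodes a protein of the meiotic synaptonemal complex, was methylated throughout, with 4 fragments at 84.5%, 92.7%, 77.6% and 88.6%. At the second of these the level was 93.3% ± 2.12 in VEH and 92.2% ± 5.63 in DDT (SD, n = 12 and 11). Among starts of pseudogenes, Gm5522 (named Cpa6) was at 89.2% and Gm8762 (named AC125186.2) at 75.8% and 39.5% in neighbouring fragments. Tmem250-ps (named Nacc2) was at 1.25% to 7.28% in 4 fragments and Bambi-ps1 (named Gm14085) at 4.79%. The Tmem250-ps fragment at 7.28% had a VEH mean of 4.40% and a DDT median of 4.25%, with DDT replicate 4 at 79.0%. The remaining 6 fragments, at the starts of Fam78a, Zeb2, Hipk3, Zhx3, Ythdf1 and Ntng1, had means over all libraries between 20.6% and 23.6%. Other fragments of the same islands went down to 0.456% at Ythdf1 and 1.36% at Zeb2. At the Zhx3 fragment the level was 17.2% ± 1.88 in VEH and 24.5% ± 22.7 in DDT (SD, n = 12 each), so the VEH mean was under 20%. At the Hipk3 fragment the median of each group was under 20%.

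The 2 tested fragments in the Gnas island (named Mir298) had mean levels of 63.6% and 70.0%. Gnas is an imprinted locus in which some promoters, that of the antisense transcript Nespas among them, are methylated on 1 parental copy. At the fragment from 174284752 VEH ran from 52.7% over a median of 72.5% to 88.5% and DDT from 0.0351% over 67.002% to 78.4%. The lowest DDT values were those of DDT replicate 4 (0.0351% of 2853 calls) and DDT replicate 12 (5.36% of 1585 calls), and the other DDT libraries were at 36.4% or more. The difference of -15.9 ± 8.52 percentage points (SE, n = 12 and 12) had an unadjusted p of 0.0762 and an adjusted p of 0.869 (ANOVA with Benjamini-Hochberg adjustment over the table), and without these libraries it was -5.25 percentage points. At the adjoining fragment from 174284689, 63 bp long, DDT replicate 4 was at 84.7% of 392 calls and DDT replicate 12 at 9.68% of 723, so in DDT replicate 4 the adjoining fragments stood at opposite ends of the scale.

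The fragment of AC137844.2 from 5860668 took far more calls than any other. It had a median of 281430 calls per library and held 3.75% to 31.9% of a library's calls in these island fragments, while the next, its neighbour in the same island, had 11973.5. Its sequence occurs at 1 place in the reference. Its level ran from 35.7% over a median of 50.9% to 54.6% in VEH and from 26.1% over 48.3% to 55.7% in DDT, a difference of -4.23 ± 3.01 percentage points (SE, n = 12 and 12; p = 0.175, adjusted p = 0.869, ANOVA). Without DDT replicates 4 and 12, which were at 34.4% and 26.1%, it was -1.15 percentage points.

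The lowest levels of fragments measured in every library were near 0. The Abhd18 fragment (named Gm10731) ran from 0% over a median of 0.224% to 1.73% in VEH and from 0% over 0% to 2.31% in DDT, with 67 to 1525 calls per library. A fragment at the start of Ythdf1 (named Birc7), which encodes a reader of methylated adenosine in mRNA, had a mean of 0.456%, and one at Nckap1 (named Dusp19), a subunit of the actin-regulating WAVE complex, 0.486%. The latter pair had 32 to 1645 calls per library, and differences of a few calls were not resolved. Intervals from calls cover counting error only, since the PCR copies of a molecule are counted each.

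Within an island the level changed from fragment to fragment. Of 137 islands with at least 3 tested fragments, the difference between the highest and the lowest mean level had a median of 8.73 percentage points, and 7 of all tested islands held both a fragment under 20% and one at 20% or more. The island with the most tested fragments, at the start of Med12l (named Clrn1), a subunit of the Mediator kinase module, had 18 between 0.572% and 18.0%. The island at Cdh4 (named Gm10711), a cadherin, had 17 between 1.77% and 11.6%, and that at Hipk3 (named Mir1902), a protein kinase, 15 between 1.20% and 21.6%. The islands at Tmem131 (named Vwa3b) and Inafm2 (named Phgr1) had 15 each, and that at Elf2 (named AC161183.1), an ETS transcription factor, had 14. In each of these 6 islands at most 1 fragment had an unadjusted p under 0.05. The plot of these islands also shows values of a single library far above all others, such as 91.9% in DDT replicate 4 at the Cdh4 fragment from 179443359, where the DDT median was 3.03%.

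**Figure D3:**
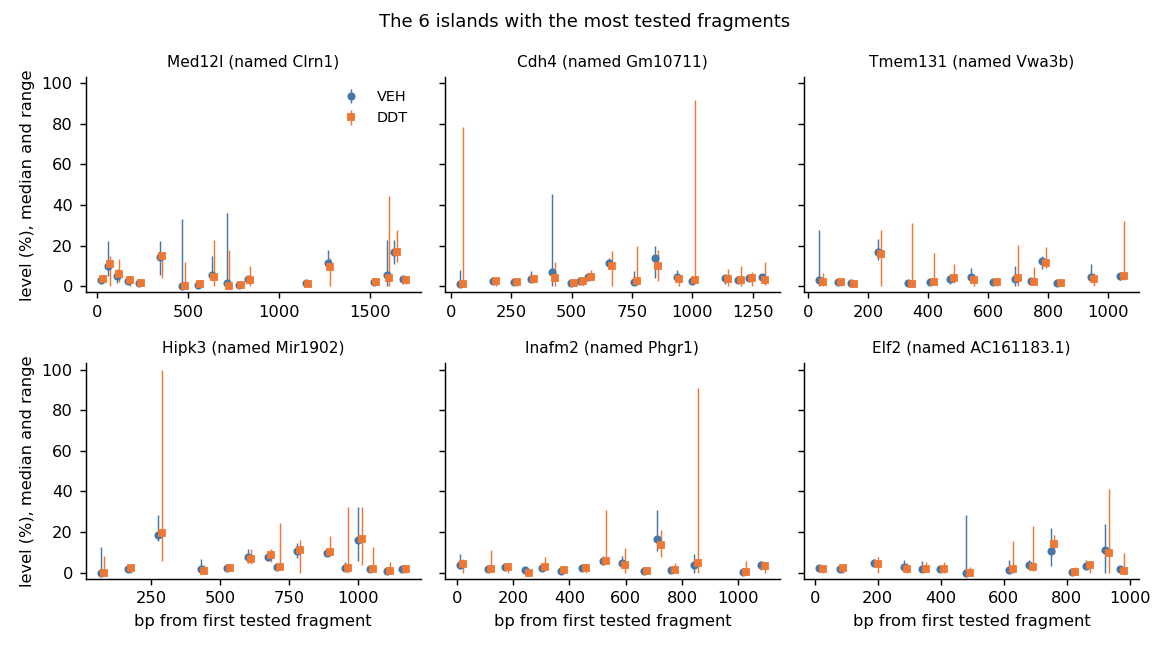
Methylation level (y axis, %) of each tested fragment of the 6 islands with the most tested fragments, against its distance from the first (x axis, bp), as the median (point) and the lowest to the highest library (line) of 12 VEH and 12 DDT libraries where all had a level. The medians lie at 19.7% or less, VEH libraries reach 45.5%, and the longest line reaches 100% at Hipk3, in DDT replicate 4.

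The level went with the length of the fragment. At islands with a transcript start the median level was 3.59% at 353 fragments of 30 to 49 bp, 2.99% at 295 of 50 to 74 bp, 4.27% at 131 of 75 to 99 bp, 7.07% at 104 of 100 to 149 bp and 10.8% at 32 of 150 to 220 bp. The same order was found within 5000 bp upstream of genes, from 3.13% at 50 to 74 bp to 12.6% at 150 to 220 bp, and in gene bodies, from 3.10% to 12.1%. The Zeb2, Hipk3 and Zhx3 fragments with means of 20.6% to 23.6% were among the long ones, at 191, 169 and 185 bp, though the VEH mean at Zhx3 was 17.2%. Depth moved with length as well, from a median of 915.5 calls per library at 30 to 49 bp to 86 at 150 to 220 bp, and its part in the levels was not tested.

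In sequence the tested fragments were like other island cores. Their median GC content was 73.7% and their median ratio of observed to expected CpGs 0.933, and they held a median of 7 CpGs in 57 bp. The ratio was 0.944 in islands with a start, 0.929 in less masked fragments with no start and 0.660 in masked fragments with no start. A GC box (GGGCGG on either strand), the letters that Sp1 family factors recognise, was in 32.0% of the tested fragments and 17.5% of all tested fragments of the table. Among fragments of 50 to 74 bp these shares were 31.5% of 330 and 16.5% of 6448. Over all lengths a GC box was in 35.6% of tested island cores within 5000 bp upstream of a gene and 25.9% of those in gene bodies. Their median ratios of observed to expected CpGs were 0.925 and 0.939. In islands with no start a GC box was in 35.3% of the less masked and 7.50% of the masked fragments.

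The comparison of DDT with VEH asks whether perinatal exposure changed methylation in infant BAT. No island fragment had an adjusted p under 0.05 (0 of 1006 by ANOVA, beside 0% of the 20225 tested fragments of the table), with 0.869 as the lowest adjusted value. An unadjusted p below 0.05 was found for 40 fragments, or 3.98%, beside 4.18% of all tested fragments. The level was lower in DDT at 30 of the 40, or 2.98% of the island fragments, beside 2.93% lower in DDT among all tested. Quasi-binomial regression gave 74 such fragments, or 7.36% beside 7.72% of all tested, and limma 31, or 3.08% beside 3.51%, and both gave 0 at an adjusted p under 0.05. These shares were near those of the whole table, so the island fragments did not stand out from it.

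Some libraries stood apart from the others in their levels. Over the 10399 fragments of the table with a level in every library, the mean level was 18.1% to 19.3% in VEH, 16.5% in DDT replicate 4, 17.5% in DDT replicate 12 and 20.1% in DDT replicate 3. DDT replicates 5, 6 and 7 (17.9% to 18.1%) were also below the lowest VEH library, by less, and DDT replicate 11 (19.5%) was above the highest. Of the 699 island fragments under 20% with a level in every library, 495 were under 0.5% in DDT replicate 4, against 25 to 69 in each VEH library and 31 to 62 in the other DDT libraries, DDT replicate 12 included. In the same library 11 of the 699 were above 50%, against 0 to 1 in VEH and 0 to 2 in the other DDT libraries. DDT replicate 4 thus had the most values at both ends of the scale, and it had no level at 199 of the 1006 tested fragments. It was the lowest DDT library at 19 of the 30 fragments that were lower in DDT. Without it 43 fragments had an unadjusted p under 0.05 (4.32%, beside 4.24% of all tested), 22 lower and 21 higher in DDT, against 30 lower and 10 higher with it.

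Averaged over the 722 island fragments with a level in every library, the level was 6.55% ± 0.298 in VEH and 6.55% ± 0.609 in DDT (SD, n = 12 each). VEH libraries ran from 6.09% over a median of 6.56% to 7.16% and DDT libraries from 5.88% over 6.30% to 7.77%, so that the DDT range enclosed that of VEH. The lowest DDT libraries were DDT replicate 12 (5.88%) and DDT replicate 7 (5.89%). The difference was 0.00324 percentage points, 0.0942 without DDT replicates 4 and 12, and -0.108 without DDT replicate 3, whose 7.77% was the highest. At the 52 fragments with no start the means were 26.7% ± 0.338 in VEH and 26.8% ± 0.798 in DDT (SD, n = 12 and 12), and at the 639 fragments at a protein-coding start 4.91% ± 0.308 and 4.92% ± 0.616. The difference between groups was under 1 percentage point at 670 of the 1006 fragments, or 66.6%, beside 52.0% of all tested fragments.

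**Figure D4:**
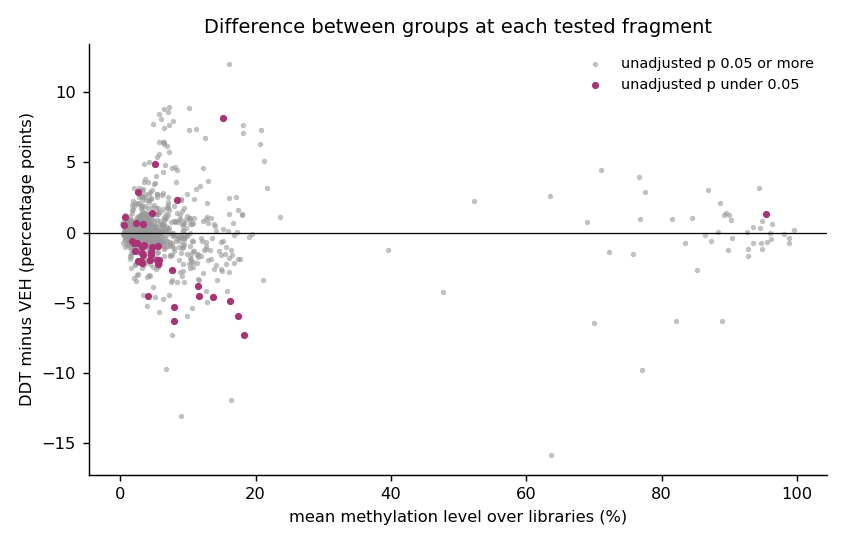
DDT minus VEH (y axis, percentage points) against the mean level over libraries (x axis, %) of the 1006 tested island fragments, with the 40 at an unadjusted p under 0.05 in colour. Most points lie between -5 and 5, 30 of the 40 coloured points lie below 0, and 1 of the 40 has a high level.

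The 10 fragments with the smallest p were all at a protein-coding start and all under 20%, 7 lower and 3 higher in DDT, and at each of them the groups overlapped. The smallest p was at the fragment in an intron of Gpc1 (named Mir149), which encodes the heparan sulfate proteoglycan glypican 1. VEH ran from 1.09% over a median of 3.57% to 7.52% and DDT from 0% over 1.43% to 3.06%, with all 12 DDT libraries below the VEH median. The difference was -2.02 ± 0.516 percentage points (SE, n = 12 and 12; p = 0.000728, adjusted p = 0.869, ANOVA), and -1.80 without DDT replicates 4 and 12. The permutation test gave an unadjusted p of 0.00030, on the same levels that chose the fragment, so it is not separate support. The adjoining Gpc1 fragment from 92832184 was also lower in DDT, at 14.4% ± 8.07 (SD, n = 12) against 20.4% ± 5.22 (SD, n = 12) in VEH, with an unadjusted p of 0.0431.

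At the fragment 18 bp from the start of Katnbl1 (named Tmem85), a regulator of the microtubule-severing enzyme katanin, VEH ran from 4.97% over a median of 7.10% to 8.08% and DDT from 0.154% over 4.97% to 7.02%. All 12 DDT libraries were below the VEH median, and the lowest was DDT replicate 4. The difference was -1.94 ± 0.564 percentage points (SE, n = 12 and 12; p = 0.00240, adjusted p = 0.869, ANOVA), and -1.46 without DDT replicates 4 and 12. A further 2 of the 7 tested fragments of this island had an unadjusted p under 0.05, both lower in DDT, beside 4.18% of all tested fragments of the table.

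The fragment at Abhd18 (named Gm10731), which encodes an alpha/beta hydrolase domain protein, was higher in DDT. VEH ran from 2.41% over a median of 3.94% to 6.05% and DDT from 4.15% over 5.24% to 6.38%, and all 11 DDT libraries with a level were above the VEH median. The difference was 1.36 ± 0.406 percentage points (SE, n = 11 and 12; p = 0.00311, adjusted p = 0.869, ANOVA). DDT replicate 4 had 4 calls there and no level, as at the other 2 of the 3 higher fragments, which lay at Zfp341 (named Pxmp4; 9.58% in DDT and 7.29% in VEH) and at the start of Fxr1 (named Gm9791; 2.69% and 1.98%), an RNA-binding relative of the fragile X protein.

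A further 4 lower fragments are given by their means in DDT and VEH. At Lrp2 (named Bbs5), the endocytic receptor megalin, the level was 2.04% ± 0.823 against 2.82% ± 0.343 (SD, n = 12 and 12), and at Abtb2 (named Cat), an ankyrin repeat and BTB domain protein, 2.12% ± 1.47 against 4.12% ± 1.81. At Ttll11 (named Morn5), a tubulin polyglutamylase, the level was 11.4% ± 5.12 against 16.03% ± 2.37, a difference of -4.61 percentage points that became -2.64 with DDT replicates 4 and 12 left out. At Rin2 (named AL672100.1), an exchange factor for Rab5, it was 4.54% ± 2.52 against 6.76% ± 1.19, a difference of -2.22 percentage points that became -1.39 in the same way. At Lrp2 the -0.779 percentage points became -0.516. DDT replicate 4 was the lowest DDT library at 5 of the 9 fragments in the plot by library.

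**Figure D5:**
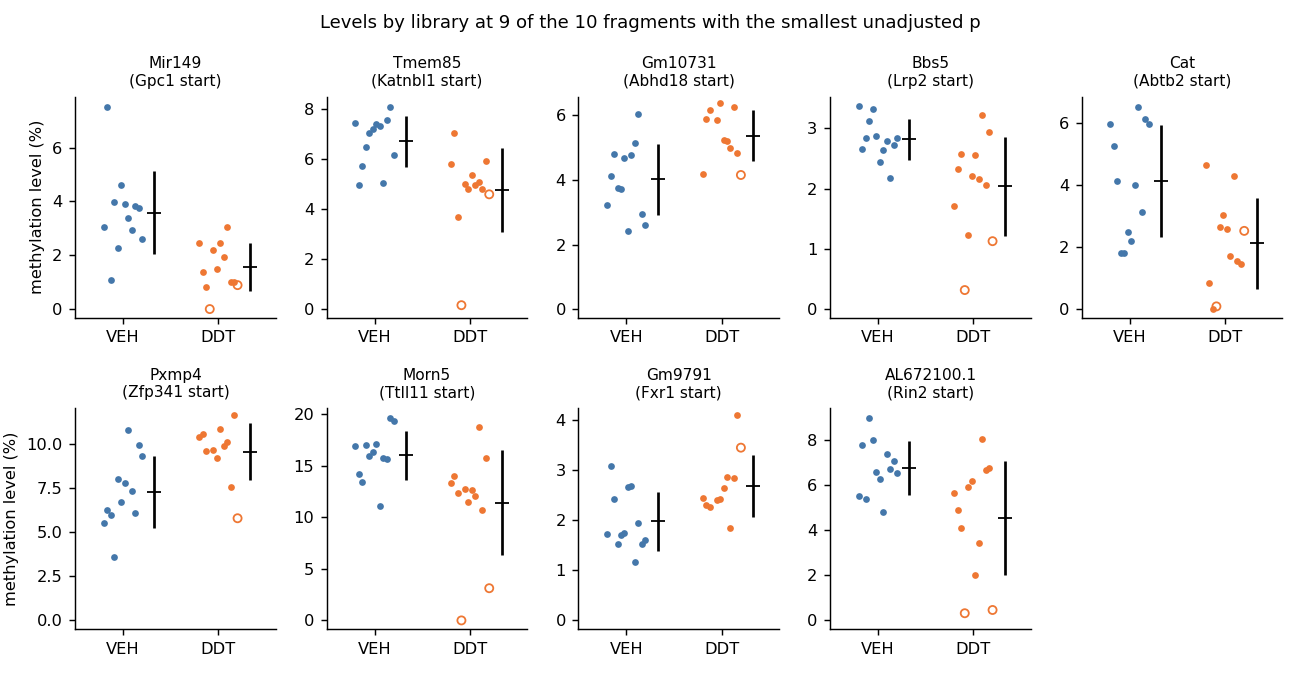
Methylation level (y axis, %) of each library at 9 of the 10 island fragments with the smallest unadjusted p, VEH and DDT in different colours, with the mean ± SD in black. Open circles are DDT replicates 4 and 12, and 3 panels have no value of DDT replicate 4; the groups overlap in every panel.

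The 40 fragments lay in 32 islands, and 5 islands held more than 1 of them. The island at Celf1 (named Ptpmt1), an RNA-binding regulator of splicing, held 4 among its 9 tested fragments, 3 lower and 1 higher in DDT. At 3 of the 4, DDT replicate 4 was at 0%. The largest difference among the 40 was at Odf2 (named 2600006K01Rik), a protein of the centriole and the sperm tail, at 19.5% ± 10.6 in DDT and 11.3% ± 4.58 in VEH (SD, n = 11 and 12; unadjusted p = 0.0239, ANOVA). The fragment with the highest level among the 40, from 44481705 in the masked 4832428D23Rik island, was at 96.1% ± 1.53 and 94.8% ± 1.15 (SD, n = 12 and 12; unadjusted p = 0.0259, ANOVA), and DDT replicate 4 was at 100% of 11 calls.

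Some fragments varied widely between litters. Among fragments with a level in every library, the largest SD between VEH libraries was at the start of Arfip1 (named Tigd4), a binding partner of small GTPases, at 15.3 percentage points in VEH, which chose it, and 6.80 in DDT. VEH replicate 1 was at 59.5% of 42 calls there, while the VEH median was 9.69%. At the Gm38399 fragment (named Csrp1) the SD was 13.4 in VEH and 1.47 in DDT, with VEH replicate 1 at 42.4% of 33 calls. At Bambi-ps1 (named Gm14085), a pseudogene, it was 10.2 in VEH and 2.70 in DDT. The SDs at the 2 Gnas fragments were 10.7 and 9.91 in VEH and 27.5 and 20.9 in DDT, and 13.2 and 10.9 in DDT without DDT replicates 4 and 12. Over all 1006 fragments the median SD was 1.21 percentage points in VEH and 2.18 in DDT, and 1.41 in DDT without these libraries. It was also larger in DDT over all tested fragments of the table, at 2.36 in VEH and 3.66 in DDT, and 2.62 in DDT without these libraries.

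Few genes of the pathways looked for had such islands. Among 127 developmental transcription factors, 4 had far upstream fragments by the authors' names and 2 of these were tested: Sp9, a zinc finger factor of limb and forebrain, with 7 fragments of 1.75% to 7.09%, and Gbx2. By the gene that starts at the island 4 were tested, with 19 fragments: Zeb2 with 8 from 1.36% to 23.6%, Nr6a1 with 5 from 1.68% to 9.45%, Tcf24 with 4 from 1.31% to 17.1%, and Hoxd3 with 2 at 1.16% and 2.13%. An unadjusted p under 0.05 was found at 2 of these 19 fragments, beside 4.18% of all tested fragments of the table. Both were among the 8 of Zeb2, a repressor that drives epithelial to mesenchymal transition. Both were lower in DDT and had DDT replicate 4 lowest, at 2.57% against 3.999% and at 13.8% against 18.7%.

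Among 64 signalling genes, Gdf5, a growth factor of joints, was tested by the authors' name with 4 fragments of 2.10% to 15.1%, and Bmp7, a BMP that promotes brown fat differentiation, by its start with 7 of 2.33% to 14.9%. Neither had a fragment at an unadjusted p under 0.05. Among 66 adipose, lipid and insulin genes, Lpin3, a phosphatidate phosphatase, was named for 11 fragments of 1.17% to 20.8% in an island at the start of Zhx3, and Angptl2, a secreted angiopoietin-like protein, for 5 of 1.01% to 14.01%. By the start, this list held Gnas and Bmp7. The smallest unadjusted p of this list was 0.0713, at Angptl2 (ANOVA). The median difference of the lists lay between -0.367 and 0.0779 percentage points, beside -0.163 over all tested fragments.

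The 5 fragments on each side of the limit of the rule all had mean levels under 10%, and the means just under it were mostly higher. Just over 5000 bp, 5 tested fragments at 5054 to 5137 bp had mean levels of 1.02% to 4.02%, in islands of Gm13334, AL589870.1 and Gm10567. Just under it, 5 at 4835 to 4993 bp had 2.65% to 9.73%, in islands of 4930518I15Rik, Gm13334 and AL683882.1, so that 1 island, of Gm13334, lay across the limit. The means just under it rest in part on single libraries and few calls. At the 4930518I15Rik fragment from 156862854 the median was 0% in VEH and in DDT, and DDT replicate 3 was at 100%. The Gm13334 fragment from 18688988 had a level in 18 libraries, a median of 22 calls and DDT replicate 5 at 50%.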

How the data were processed

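RRBS libraries of BAT from 12 VEH and 12 DDT litter pools were analysed. The authors digested DNA with MspI, sequenced it after bisulfite conversion as single-end reads, trimmed them with Scythe and Sickle, aligned them to GRCm38 with Bismark 0.15.0 and Bowtie 2, and deposited counts of methylated and not methylated CpG calls per fragment, without normalization. They also deposited the gene, distance and island annotation, whose release is not given in the sources used here. The table analysed here covers chromosomes 1, 2 and part of 3. All 2042 island fragments lay between MspI sites of GRCm38.

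Levels (at least 10 calls) were compared between groups by ANOVA, and p-values were adjusted by Benjamini-Hochberg over all 20225 fragments with at least 8 libraries per group, at a threshold of 0.05. For the 10 fragments with the smallest p a two-sided permutation test (100000 resamples) was added. Transcript starts came from GENCODE M21, sequence and soft-masking from the RefSeq GRCm38 reference. Whether a start lay within 1000 bp, copy number, fragment length and the matching of lists by starting gene were looked at after the data were seen. Leaving out DDT replicates 4 and 12 together was likewise chosen after the data were seen. The members, gene lists and naming rule (the smallest p, highest, lowest and intermediate levels, largest VEH spread, largest islands, list genes, and fragments at 5000 bp) were chosen with earlier results of these data known. Some fragments that the rule names are not reported here. Departing from the rule, further fragments are named for their island or level after their values were seen. No pair of libraries was identical, and the closest pair differed by a mean chi-square of 1.89 (VEH replicate 12 and DDT replicate 11). Nothing states how litters relate beyond the pools, so p-values set the difference between groups against the spread between these pools. Calls in tested island fragments had a median of 295 to 690 per library and fragment. ANOVA and quasi-binomial regression (Python 3.11.15, NumPy 2.4.6, pandas 2.3.3, SciPy 1.17.1) were tested on simulated data. The simulated shifts were placed only in fragments of intermediate level, so the power at low levels, where most island fragments lie, was not tested. limma 3.58.1 in R 4.3.3 was an alternative, beside other call minimums, all 24 libraries, the replicate number as a block and each library left out.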

Additional observations from a re-analysis of the deposited data

How the results depend on the processing

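No alternative run gave a fragment at an adjusted p below 0.05 (0 in each): quasi-binomial regression, limma, at least 5 or 20 calls, a level in all 24 libraries, the replicate block, each library left out (0 to 0), and DDT replicates 4 and 12 left out. The 40 fragments at an unadjusted p under 0.05 became 74 with quasi-binomial regression, where all tested fragments rose to 7.72%. They became 5 where groups also had to differ by 5 percentage points or more, a limit that was not applied to all tested fragments. In islands with no start, a set with fewer fragments by construction, they were 3 of 91 (3.30%, beside 4.18% of all tested). Leaving out 1 library gave 33 to 49. With the replicate block there were 28 (2.78%, beside 4.12% of all tested). Replicate numbers did not pair the libraries: the correlation of same-numbered libraries' deviations ran from -0.180 to 0.199 and was over 0.1 in 3 of 12. The mean difference ran from -0.108 (without DDT replicate 3) to 0.0637 percentage points on leaving out 1 library, was -0.162 over every tested fragment a library covers and -0.0987 over islands, so that its sign was not stable, and was -3.15 in pooled calls, where 1 fragment of AC137844.2 holds up to 31.9% of a library's calls. Level classes (under 20%, 20% to 80%, 80% or more) were 56, 9 and 32 with no transcript start within 1000 bp of the fragment, 258, 7 and 33 over 50000 bp upstream, and 170, 11 and 20 with islands as units (fragments at most 500 bp apart joined), each on fewer units by construction. With at least 20 calls, VEH only or single-copy sequences they stayed within 1.5 times. Of 985 values of 32 named fragments under alternatives, 965 kept their side of an unadjusted p of 0.05, 5 lost it, 15 gained it and none changed sign with it. Among the described fragments with the smallest p, Fxr1 lost it with at least 5 calls. Depth limits what long fragments and repeat copies can show.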
